A study of Mus musculus with 18 samples.

Results

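The 40 genes described here are components of the DNA replication and mitosis programme of the cell cycle. They were selected by gene symbol from the 25279 genes of the deposited count table, and all 40 passed the low-count filter that left 20267 genes for testing. By role, 15 act in DNA replication: the helicase subunits Mcm2 to Mcm7 and their partners Mcm10, Cdc45 and Gins1 to Gins4, the licensing factors Cdc6 and Cdt1, and the sliding clamp Pcna. A further 6 are regulators, named G1/S cyclins and transcription factors in the plots: the G1/S cyclins Ccne1 and Ccne2 with their kinase Cdk2, and the transcription factors E2f1, which acts at G1/S, and Mybl2 and Foxm1, which act later. The other 19 act in mitosis: Ccna2, Ccnb1, Ccnb2, Cdk1, Bub1, Bub1b, Aurka, Aurkb, Plk1, Cdc20, Ube2c, Top2a, Mki67, Birc5, Cenpa, Cenpe, Cenpf, Kif11 and Tpx2.

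Replication origins are licensed in G1, when Cdc6 and Cdt1 load the Mcm helicase, and are fired in S phase, when Cdc45 and the GINS complex join it. E2F factors drive transcription of the replication genes at the G1/S boundary, and B-Myb (Mybl2) and Foxm1 drive the mitotic genes later, in G2, often through CCAAT boxes and a cell cycle element called CHR. Embryonic stem cells have a short G1 and high levels of these transcripts, and differentiation usually lengthens G1.

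Bulk RNA-seq covered mouse embryonic stem cells (ESCs) in which the gene for the transcription factor Oct1, Pou2f1, is conditionally deleted (cKO), and the parental ESCs, at days 0, 3 and 6 of a differentiation protocol that induces mesoderm. The groups were cKO day 0, parental day 0, cKO day 3, parental day 3, cKO day 6 and parental day 6, with 3 libraries each, 18 in all. The labels name neither the driver and time of the deletion nor the number of clones. They also leave unsaid whether replicates are separate cultures, so p-values measure only the spread between these libraries. Titles of the day 0 libraries carry another number prefix than those of days 3 and 6, and changes from day 0 cannot be told apart from it.

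Library totals ran from 13704958 to 26995420 counts. Pou2f1 had 62.2 to 95.4 CPM (counts scaled to library size) in cKO libraries, against 123 to 142 CPM in parental libraries, over the 3 days. The summed level of 12 pluripotency markers was 8781 to 10900 CPM at day 0, 1054 to 1384 CPM at day 3 and 72.4 to 269 CPM at day 6, and at day 3 that of 10 streak and nascent mesoderm markers was 144 to 278 CPM in cKO and 651 to 794 CPM in parental libraries. One day 6 library, cKO replicate 2, stood apart: the chi-square per degree of freedom of its counts against the other cKO day 6 libraries was 106 and 96.9, against 3.49 to 5.84 for the other day 6 pairs of the same group. Genes of chromosome 11 were lower in cKO as a block, with a median log2 fold change of -0.38 at day 0, -0.39 at day 3 and -0.49 at day 6 over the genes of at least 5 CPM, 921 of them, and 4 members lie there (Cdc6, Aurkb, Top2a and Birc5). Of the 40 members, 7 share over 5% of their 50-base stretches with another gene: Ccnb1 39.3%, Mcm7 34.0%, Mybl2 29.7%, Pcna 23.8%, Cdc20 15.1%, Plk1 7.41% and Cdc6 5.19%. The sources used here do not give how such reads were counted or the strand setting, so these levels are uncertain, and so are those of 11 members that overlap another gene of the table in position (Mcm7, Cdc45, Gins2, Ccna2, Cdc20, Ube2c, Kif11, Ccne2, Cdk2, Mybl2 and Foxm1).

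Promoter windows of 300 bases, from 250 before to 50 after the start, are shown for members with the smallest adjusted p at day 6, because the share of windows with an E2F word or a CHR word differs between replication and mitosis members. RefSeq (GRCm38.p6) gave a window for 31 of the 40 members. It gave none for Mcm4, Gins1, Gins2, Gins4, Ccna2, Aurkb, Tpx2, Ccne2 and Foxm1. It listed 32851 windows for 27025 genes. Only the window of the first listed start of each gene was searched, which need not be the start used in these cells. Capitals mark E2F words (TTTGGCGC, TTTCGCGC or TTTCCCGC), CHR words (TTTGAA or TTCGAA) and the CCAAT box (CCAAT), on either strand, 5′ to 3′ along the gene. Mcm2 (chr6:88898731-88899030, minus strand) and Mcm6 (chr1:128359656-128359955, minus strand) encode helicase subunits, Cdt1 (chr8:122567765-122568064, plus strand) a licensing factor, Ccnb2 (chr9:70421505-70421804, minus strand) a mitotic cyclin and Top2a (chr11:99024140-99024439, minus strand) the topoisomerase that untangles sister chromosomes.
Mcm2: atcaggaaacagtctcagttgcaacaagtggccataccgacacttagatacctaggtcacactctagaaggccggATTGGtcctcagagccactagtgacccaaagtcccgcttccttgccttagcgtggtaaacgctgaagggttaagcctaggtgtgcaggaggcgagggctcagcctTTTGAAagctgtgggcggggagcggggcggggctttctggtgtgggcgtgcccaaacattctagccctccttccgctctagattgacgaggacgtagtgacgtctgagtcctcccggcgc
Mcm6: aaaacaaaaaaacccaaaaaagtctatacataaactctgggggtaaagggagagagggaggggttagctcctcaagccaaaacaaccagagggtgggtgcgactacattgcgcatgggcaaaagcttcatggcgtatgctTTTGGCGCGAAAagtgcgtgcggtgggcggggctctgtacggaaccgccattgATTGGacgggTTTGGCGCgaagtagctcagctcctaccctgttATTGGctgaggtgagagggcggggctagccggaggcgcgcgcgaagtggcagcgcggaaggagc
Cdt1: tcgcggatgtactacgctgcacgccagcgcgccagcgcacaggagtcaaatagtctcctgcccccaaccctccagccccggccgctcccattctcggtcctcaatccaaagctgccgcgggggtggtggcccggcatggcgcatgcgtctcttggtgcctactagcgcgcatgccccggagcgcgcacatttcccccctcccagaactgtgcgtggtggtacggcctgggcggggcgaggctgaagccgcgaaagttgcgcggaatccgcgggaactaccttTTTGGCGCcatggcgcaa
Ccnb2: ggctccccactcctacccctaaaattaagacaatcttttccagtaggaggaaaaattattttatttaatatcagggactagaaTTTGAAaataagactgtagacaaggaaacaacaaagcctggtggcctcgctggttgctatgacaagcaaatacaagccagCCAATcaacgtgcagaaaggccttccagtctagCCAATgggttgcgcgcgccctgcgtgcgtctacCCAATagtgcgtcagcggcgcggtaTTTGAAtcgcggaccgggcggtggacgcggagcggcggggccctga
Top2a: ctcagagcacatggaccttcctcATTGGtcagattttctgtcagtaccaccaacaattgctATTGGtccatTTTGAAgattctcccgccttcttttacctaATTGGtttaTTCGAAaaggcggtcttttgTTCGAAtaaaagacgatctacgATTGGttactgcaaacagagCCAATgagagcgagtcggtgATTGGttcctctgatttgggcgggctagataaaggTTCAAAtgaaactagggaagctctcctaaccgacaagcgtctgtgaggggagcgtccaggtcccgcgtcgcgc
The Mcm6 window holds 3 E2F words, a pair of which overlap, and 2 CCAAT boxes, and the Cdt1 window holds 1 E2F word, 33 bases into the transcript. The Mcm2 window holds no E2F word but has 1 CHR word and 1 CCAAT box. The mitotic windows hold no E2F word: Ccnb2 has 2 CHR words and 3 CCAAT boxes, and Top2a has 4 CHR words and 6 CCAAT boxes.

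E2F words were present in 7 of 11 replication windows (63.6%: Cdc6, Cdt1, Gins3, Mcm3, Mcm5, Mcm6 and Mcm7) and in 1 of 16 mitosis windows (6.25%, Cdk1), against 1.91% of the windows of all 27025 genes. A CHR word together with a CCAAT box was present in 13 of 16 mitosis windows (81.2%) and in 4 of 11 replication windows (36.4%), against 7.7% of all windows. CHR words with or without CCAAT were in the same 13 and 4 windows, against 19.4% of all windows. CCAAT boxes were common in both groups, in 15 of 16 mitosis windows (93.8%) and 9 of 11 replication windows (81.8%), against 37.9% of all windows. The CHR words are short, TTCGAA reads the same on both strands, and a match is a description of the letters and not of a bound site. Among the 4 regulator windows, Cdk2 held an E2F word and a CCAAT box, and E2f1, Mybl2 and Ccne1 held none of the words searched. Other starts of these genes were not searched, so a missing word does not show that the gene's promoter lacks it.

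**Figure D1:**
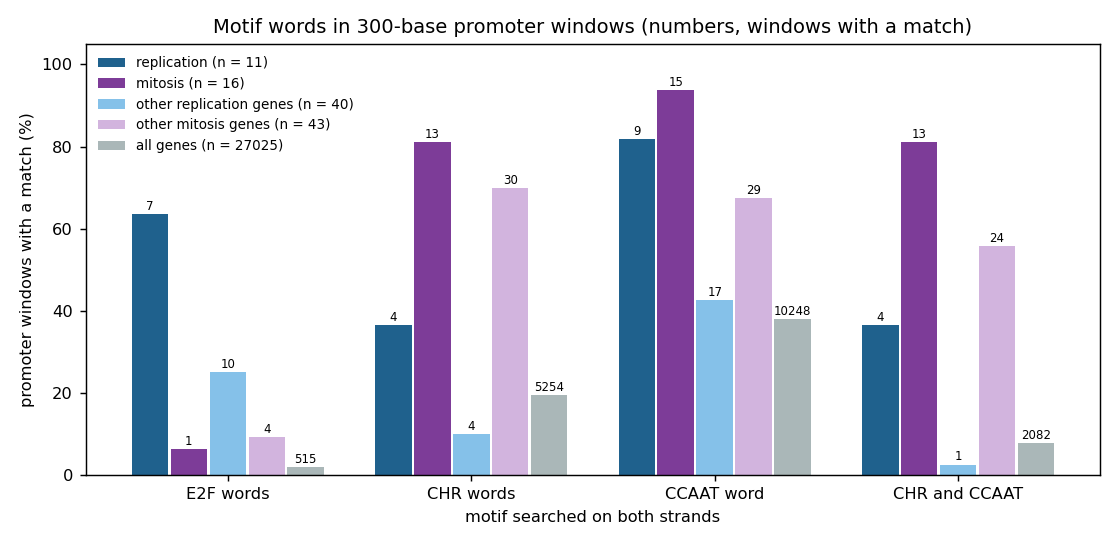
Share of 300-base promoter windows (y axis, %) that hold each motif on either strand (x axis), for replication and mitosis members, for the other genes of both pathways and for all genes with a window. Numbers above the bars count windows with a match; E2F words were in 7 of 11 replication windows and CHR with CCAAT in 13 of 16 mitosis windows.

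Levels of most members fell in both genotypes as the cells differentiated, and at day 6 most members were lower in cKO than in parental cells. Per length (FPKM on merged exons), the most abundant members at day 0 were Cdc20 at 178 and Mybl2 at 176 FPKM in cKO cells, and Mcm3 at 152 and Top2a at 148 FPKM in parental cells. The least abundant was Gins3, a GINS subunit, at 6.43 FPKM in cKO and 4.63 FPKM in parental cells. At day 6 the 3 highest were Pcna, Mki67 and Top2a, with 73.5, 60.7 and 56.04 FPKM in cKO and 104, 94.5 and 122 FPKM in parental cells. Gins3 was still the lowest at day 6, with 4.34 FPKM in cKO and 5.87 FPKM in parental cells. All other levels are in CPM, which compare libraries and not genes.

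**Figure D2:**
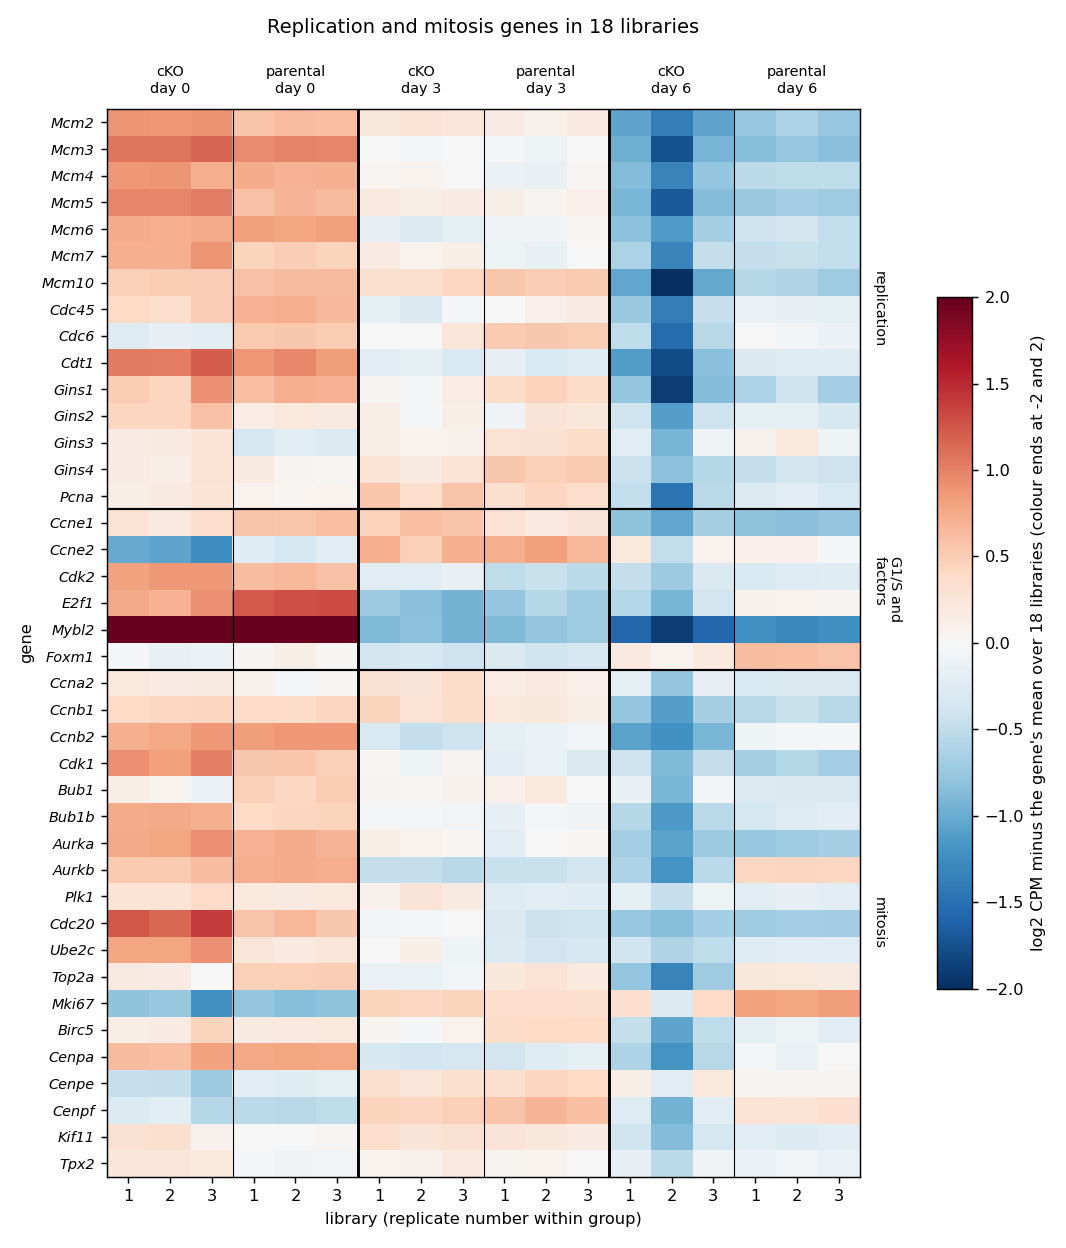
Level of each of the 40 genes (y axis) in each of the 18 libraries (x axis), as log2 CPM minus the gene's mean over the libraries, with cKO left of parental at each day. Most genes are high at day 0 and low at day 6, Mki67 and Ccne2 are low at day 0, and cKO day 6 replicate 2 is the lowest cKO day 6 library for all 40 genes.

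The day 6 comparison asked how cKO cells differed from parental cells late in the protocol. Of the 40 members, 28 were lower in cKO and 0 were higher (edgeR quasi-likelihood test, adjusted p under 0.05), where 25.7% of all genes tested were lower and 19.9% higher. DESeq2 also called 0 higher but only 24 lower, where 18.8% of all genes were lower. RLE factors gave 0 higher and 24 lower, where 22.1% of all genes were lower. In the main edgeR fit, 0 were higher at an unadjusted p under 0.05. Its lower calls came to 13 of 15 replication genes, 11 of 19 mitosis genes and 4 of 6 regulators. Median log2 fold changes were -0.44 for replication, -0.27 for mitosis and -0.32 for regulators, and -0.09 for all genes. Bulk RNA cannot tell fewer cells in cycle from less RNA of these genes per cell.

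Among the licensing factors, Cdt1 (ENSMUSG00000006585, chromosome 8, 122568015 to 122573554 on the plus strand of GRCm38), which brings the helicase to origins, had 38.3, 24.1 and 46.6 CPM in cKO libraries, against 67.7, 70.1 and 69.8 CPM in parental libraries at day 6. All 3 cKO libraries lay below all parental libraries, with replicate 2 lowest. The log2 fold change was -0.93 ± 0.15 (SE, adjusted p = 0.000112). Cdc6, which recruits Cdt1, had 73.3, 35.8 and 70.9 CPM in cKO and 104, 99.7 and 96.0 CPM in parental libraries, again without overlap, with a log2 fold change of -0.74 ± 0.18 (adjusted p = 0.00335). It is on chromosome 11, and was lower in cKO at day 0 too.

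Of the Mcm helicase subunits, 5 of 6 were lower. Mcm2 (ENSMUSG00000002870, chromosome 6, 88883474 to 88898780, minus strand) had 178, 143 and 179.9 CPM in cKO libraries and 221, 241 and 219.6 CPM in parental libraries, a log2 fold change of -0.44 ± 0.07 (adjusted p = 7.71e-05). Mcm6 (ENSMUSG00000026355, chromosome 1, 128331590 to 128359664, minus strand) had 193, 156 and 213 CPM in cKO and 254, 262 and 242 CPM in parental libraries, a log2 fold change of -0.43 ± 0.08 (adjusted p = 0.000302). For both genes each cKO library was below each parental library. Mcm4, Mcm5 and Mcm3 were also lower, with log2 fold changes of -0.46, -0.40 and -0.36, and of -0.30, -0.18 and -0.14 without replicate 2. Mcm7 did not pass the test, with 250.1, 156 and 277 CPM in cKO and 279, 285 and 276 CPM in parental libraries (-0.30 ± 0.13, adjusted p = 0.0806), and its libraries overlapped.

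Factors that turn the loaded helicase into a moving fork were mostly lower as well. Mcm10 had 64.3, 32.7 and 64.4 CPM in cKO and 88.7, 86.8 and 80.7 CPM in parental libraries, a log2 fold change of -0.67 ± 0.17. Cdc45, the helicase partner, had a mean of 35.9 ± 10.9 CPM in cKO and 56.5 ± 1.48 CPM in parental libraries (SD, n = 3 each), a log2 fold change of -0.66 ± 0.15. These 2 genes did not overlap between genotypes. Of the GINS subunits, Gins1, Gins3 and Gins2 were lower at -0.54, -0.44 and -0.38 (-0.27, -0.23 and -0.19 without replicate 2), and Gins4 did not pass (-0.18 ± 0.08, adjusted p = 0.0808). Pcna, the clamp that holds polymerases on DNA, had 214.5, 108 and 207 CPM in cKO and 249.7, 257 and 242 CPM in parental libraries (-0.50 ± 0.17, adjusted p = 0.0269). Replicate 2 was far below the other cKO libraries, and those were still below all parental libraries.

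Among the regulators, E2f1, the activator of S-phase genes, had 23.0, 18.01 and 26.4 CPM in cKO and 36.5, 36.0 and 35.5 CPM in parental libraries, a log2 fold change of -0.68 ± 0.11 (adjusted p = 5.91e-05). Foxm1 and Mybl2, the activators of G2 and mitosis genes, were lower at -0.44 ± 0.06 (adjusted p = 7.84e-06) and -0.42 ± 0.08 (adjusted p = 0.000188). For these 3 factors no cKO library reached a parental library. Cdk2, the kinase of cyclin E, was lower by the test at -0.22 ± 0.08 (adjusted p = 0.0298), with overlapping libraries. The cyclins Ccne1 and Ccne2 did not pass, at -0.02 ± 0.08 and -0.10 ± 0.13.

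The mitosis genes were divided. Aurkb (ENSMUSG00000020897, chromosome 11, 69045647 to 69051664, plus strand), the kinase of the chromosomal passenger complex, had 39.6, 26.7 and 41.5 CPM in cKO and 80.8, 81.2 and 80.7 CPM in parental libraries, with a log2 fold change of -1.17 ± 0.11 (adjusted p = 1.44e-07). Top2a (ENSMUSG00000020914, chromosome 11, 98992943 to 99024189, minus strand) had 553, 379 and 584 CPM in cKO and 1114, 1102 and 1074 CPM in parental libraries (-1.12 ± 0.11, adjusted p = 2.26e-07). Ccnb2 (ENSMUSG00000032218, chromosome 9, 70407692 to 70421547, minus strand) had 39.8, 36.2 and 44.4 CPM in cKO and 78.5, 81.0 and 82.0 CPM in parental libraries (-1.004 ± 0.073, adjusted p = 9.33e-09). In all 3 genes the cKO libraries stood far below the parental libraries, and for Ccnb2 replicate 2 was close to the others. Mki67, the proliferation marker Ki-67, had 682, 447 and 703 CPM in cKO and 949, 937 and 967 CPM in parental libraries (-0.64 ± 0.13, adjusted p = 0.00078).

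The kinetochore proteins Cenpf and Cenpa were lower at -0.74 ± 0.13 and -0.70 ± 0.11, the passenger subunit Birc5 at -0.49 ± 0.11 and the checkpoint kinase Bub1b at -0.44 ± 0.10. Birc5 lies on chromosome 11, where the median over genes of at least 5 CPM was also -0.49 at day 6. Ccnb1, the main mitotic cyclin, the spindle motor Kif11 and Ube2c, the ubiquitin-conjugating enzyme of the anaphase-promoting complex, were lower at -0.32, -0.27 and -0.27. In contrast to these 11, 8 mitosis genes did not pass: Tpx2 at -0.14, Aurka at -0.10, Cdc20 and Ccna2 at -0.06, Plk1 at -0.05, Bub1 at -0.04, Cenpe at 0.00 and Cdk1 at 0.05. Aurka, a kinase of the spindle poles, had 71.3, 54.1 and 69.0 CPM in cKO and 67.5, 69.7 and 71.7 CPM in parental libraries. Its activator Tpx2 had 256, 199.5 and 273 CPM in cKO and 265, 276 and 260.2 CPM in parental libraries. For Aurka replicate 2 was the only cKO library below the parental range, and for Tpx2 replicates 1 and 2 were below it. Over all members, 26 of 40 had cKO libraries wholly below the parental libraries, against 30.6% of all genes tested, and 0 had them wholly above, against 20.9%.

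**Figure D3:**
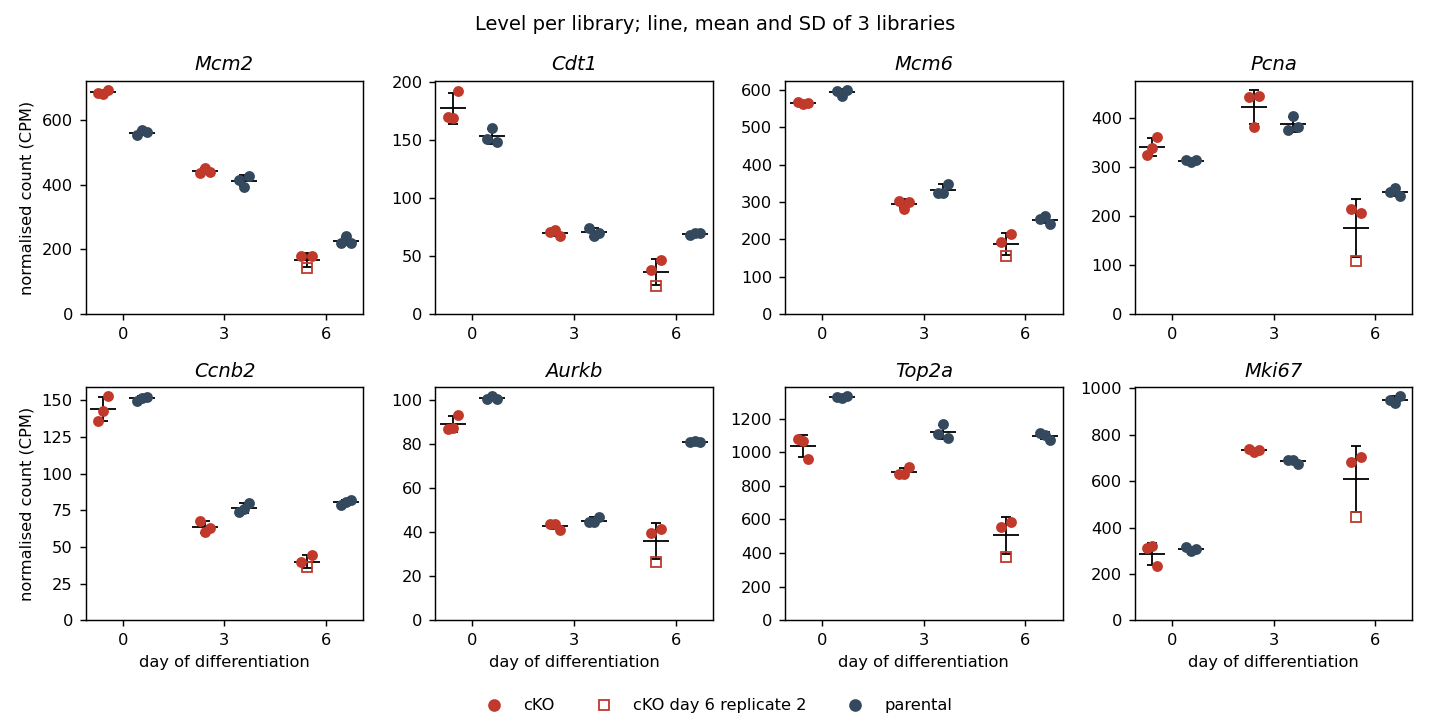
Level in CPM (y axis, from 0) of 8 members by day (x axis), with cKO in red left of parental in dark grey; points are libraries, the open square is cKO day 6 replicate 2, and lines are the mean and SD of 3 libraries. At day 6 all cKO libraries of the 8 genes lie below the parental libraries, while Mki67 is higher at days 3 and 6 than at day 0 in both genotypes.

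Replicate 2 of the cKO day 6 group was below both other cKO libraries and below all parental libraries for 40 of 40 members. Its level was at the median 67.1% of the mean of the other cKO libraries: 58.1% for replication genes, 70.9% for mitosis genes and 79.4% for regulators. The other cKO libraries were below all parental libraries for 26 members, and above all parental libraries for 4 mitosis genes (Ccna2, Cdk1, Bub1 and Cenpe). For these counts of 40, 26 and 4 members, shares over all genes tested were not computed. This library stood apart over all genes, so 40 of 40 cannot be read as particular to the members. Without replicate 2, 24 members were lower and 2 were higher, where 25.4% and 20.0% of 20814 genes tested were. The 24 were all among the 28: 11 replication genes, 10 mitosis genes and 3 regulators. Gins2, Gins3, Kif11 and Cdk2 were lower only with all libraries, with adjusted p of 0.0631, 0.0603, 0.0837 and 0.137 without it.

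Without that library the median log2 fold changes were -0.27 for replication, -0.20 for mitosis and -0.22 for regulators, against -0.08 for all genes. Cdt1 was then -0.71 ± 0.07, Mcm2 -0.34 ± 0.06, Pcna -0.24 ± 0.06, Cdc6 -0.47 ± 0.06, Mcm10 -0.41 ± 0.06, Bub1b -0.27 ± 0.06, Ccnb1 -0.20 ± 0.06, Birc5 -0.32 ± 0.07, Aurkb -0.995 ± 0.065, Top2a -0.95 ± 0.06 and Ccnb2 -0.93 ± 0.07. Cdk1, the mitotic kinase, and Bub1, a checkpoint kinase, were then higher in cKO, each at 0.18 ± 0.06 (adjusted p = 0.0131 and 0.0157). Their cKO libraries other than replicate 2 had 118 and 113 CPM for Cdk1 and 173 and 183 CPM for Bub1, against parental means of 102 ± 4.16 and 157 ± 0.89 CPM (SD, n = 3). Outside chromosome 11, 24 of 36 members were lower with all libraries and 20 without replicate 2. Over all chromosomes, 25.7% and 25.4% of genes tested were lower. The share outside chromosome 11 alone was not computed.

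**Figure D4:**
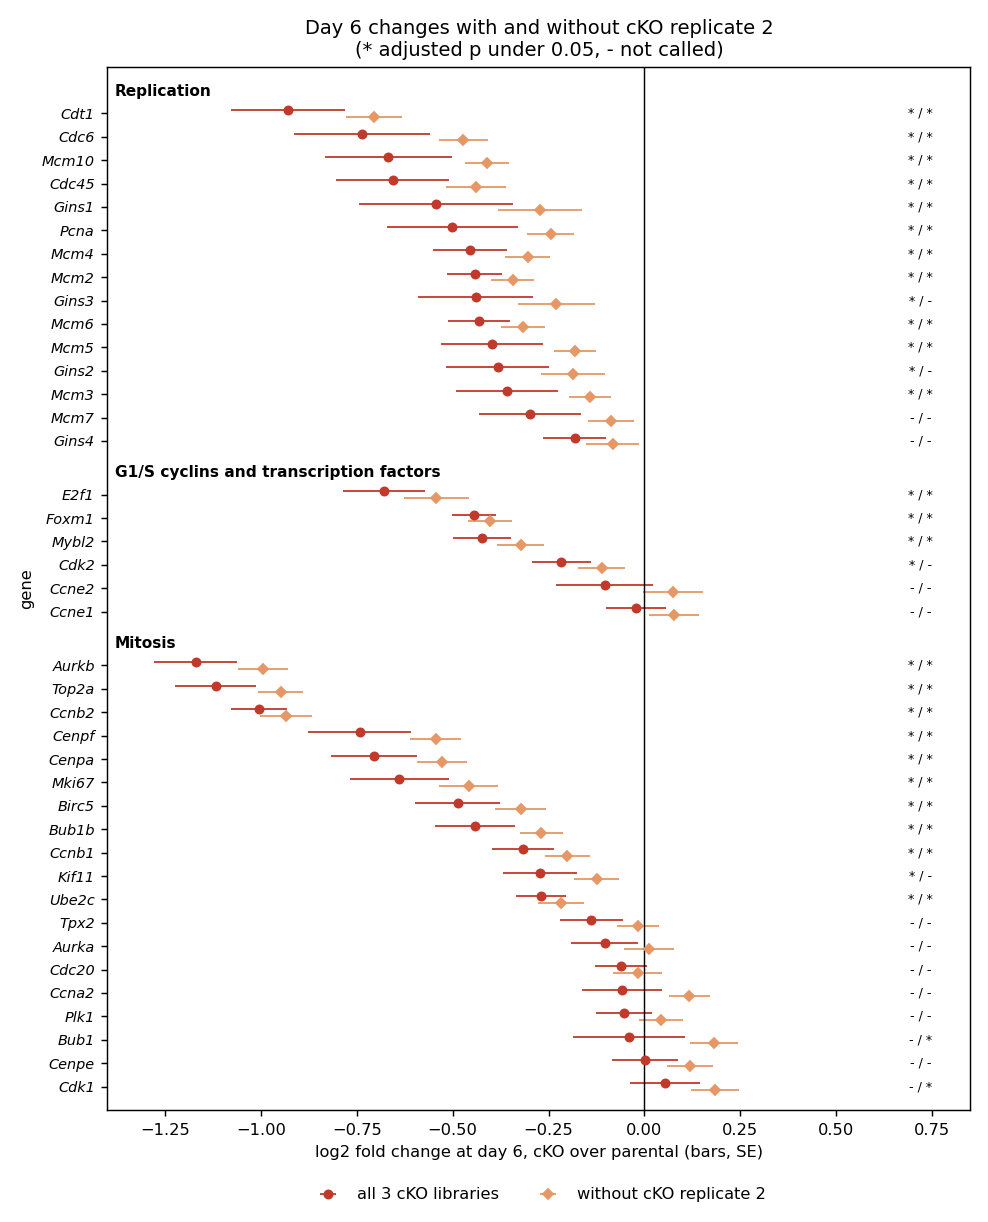
Log2 fold change at day 6, cKO over parental (x axis; bars are SE), of each member (y axis) with all 3 cKO libraries (red circles) and without cKO replicate 2 (orange diamonds); signs at the right show which of the 2 fits called the gene. Of 40 genes, 28 were lower with all libraries and 24 without replicate 2, and most changes are nearer 0 without it.

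Leaving out each of the 6 libraries of the comparison in turn kept 20 of the 28 calls in every fit. The calls lost in some fit were Mcm3, Mcm5, Gins1, Gins2, Gins3, Pcna, Kif11 and Cdk2, and leaving out parental replicate 2 left 20 calls, where 4366 of 20835 genes tested were lower. A fit of the 6 day 6 libraries alone, with its own spread, called 12 members lower, where 15.9% of the 18044 genes tested were lower.

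Genes of the same pathways that are not members were mostly lower in cKO at day 6 too, where 25.7% of all genes tested were lower and 19.9% higher. Of 47 other replication genes, 36 were lower and 1 was higher, with a median of -0.54, and without replicate 2 the counts were 34 and 3 with a median of -0.42. Rpa1, the largest subunit of the single-strand binding protein, averaged 94.9 ± 15.2 CPM in cKO and 163 ± 5.29 CPM in parental libraries (-0.78 ± 0.08, adjusted p = 4.64e-07), and it is on chromosome 11. Tk1, thymidine kinase, also on chromosome 11, averaged 29.9 ± 8.22 CPM in cKO and 60.6 ± 1.41 CPM in parental libraries (-1.02 ± 0.14), and Pold1, the catalytic subunit of polymerase delta, 54.0 ± 10.1 CPM in cKO and 87.6 ± 1.75 CPM in parental libraries (-0.70 ± 0.10). Of 50 other mitosis genes, 38 were lower and 1 was higher, with a median of -0.39, and without replicate 2 the counts were 34 and 3 with a median of -0.22. Cdc25b, a phosphatase that activates Cdk1, averaged 15 ± 3.55 CPM in cKO and 38.5 ± 0.82 CPM in parental libraries (-1.36 ± 0.13, adjusted p = 2.12e-07). Cdca8, the passenger subunit borealin, and Ncapd2, a condensin subunit, were lower at -0.87 ± 0.10 and -0.78 ± 0.09.

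A list of G1 cyclins, CDK inhibitors and pocket proteins went both ways at day 6, with 8 of 28 higher and 10 lower. Of all genes tested, 19.9% were higher and 25.7% lower. Cdkn1a, the CDK inhibitor p21, had 95.7, 239.9 and 98.6 CPM in cKO libraries and 42, 37.9 and 39.4 CPM in parental libraries, a log2 fold change of 1.86 ± 0.27 (adjusted p = 8.27e-05) and of 1.29 without replicate 2. Every cKO library was above every parental library, and replicate 2 was the highest by far. Ccnd1 (cyclin D1) was higher, with 71.3 ± 2.93 CPM in cKO and 31.9 ± 0.42 CPM in parental libraries (1.16 ± 0.06, adjusted p = 4.76e-11). Ccnd2 (cyclin D2) was lower, with 230.3 ± 57.9 CPM in cKO and 824 ± 42.4 CPM in parental libraries (-1.84 ± 0.14, adjusted p = 3.75e-08), and so was E2f2, an activating E2F, with 5.49 ± 1.25 CPM in cKO and 26.0 ± 1.01 CPM in parental libraries (-2.24 ± 0.17). Cdkn1c (p57) was higher at 0.39 ± 0.12 with overlapping libraries, and Cdkn1b (p27) did not pass at 0.07 ± 0.12.

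Markers of other cell types and of p53 activity moved at day 6 beside the cell cycle genes. All 12 epithelial markers were higher in cKO, with summed levels of 1594, 5979 and 1627 CPM in cKO libraries and 741 to 778 CPM in parental libraries. Of 18 p53 targets, which include Cdkn1a, 16 were higher and 1 lower, with sums of 1575, 3721 and 1655 CPM in cKO libraries and 1023 to 1051 CPM in parental libraries. Replicate 2 was the highest on both lists. Of 12 neural markers 9 were lower and 1 higher, with sums of 217 to 266 CPM in cKO and 567 to 622 CPM in parental libraries; of 12 pluripotency markers 9 were lower, with sums of 72.4 to 75.8 CPM in cKO and 259.9 to 269 CPM in parental libraries. Fibroblast markers had 10 of 12 higher (1876 to 1921 CPM in cKO, 1155 to 1226 CPM in parental libraries), endoderm markers 6 of 9 tested higher and 1 lower (119 to 148 CPM in cKO, 68.1 to 71.0 CPM in parental libraries) and streak markers 6 of 10 higher and 1 lower (29.8 to 65.0 CPM in cKO, 9.02 to 11.97 CPM in parental libraries). Afp and Apoa1 of the endoderm list and Mixl1, Tbx6, Wnt3a and Evx1 of the streak list were below 1 CPM in all day 6 libraries. Mitochondrial mRNA took 3.72 to 4.13% of counts in cKO and 2.999 to 3.19% in parental libraries at day 6, and ribosomal protein genes 2.55 to 3.24% in cKO and 3.25 to 3.35% in parental libraries. The part of these differences in the lower levels of the members was not tested.

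In undifferentiated cells at day 0 the members were split. Of the 40, 10 were higher in cKO (15.1% of all genes were) and 8 were lower (16.5% of all genes were), with medians of 0.12 for replication, 0.11 for mitosis and -0.23 for regulators, against 0.00 for all genes. Among the regulators Ccne2, cyclin E2, had 26.5, 25.6 and 22.6 CPM in cKO and 45.2, 41.7 and 46.1 CPM in parental libraries, a log2 fold change of -0.83 ± 0.13 (adjusted p = 9.33e-05). E2f1 had 58.0, 55.5 and 64.8 CPM in cKO and 80.2, 83.4 and 84.9 CPM in parental libraries (-0.48 ± 0.10, adjusted p = 0.0017). Neither gene overlapped between genotypes. Ccne1 and Foxm1 were lower at -0.30 and -0.16, and Mybl2 and Cdk2 were higher at 0.37 and 0.23.

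Among replication genes at day 0, Cdc6 had 87.2, 92.5 and 88.6 CPM in cKO and 149.6, 151 and 148 CPM in parental libraries (-0.74 ± 0.18, adjusted p = 0.00461), the only replication gene that was lower. Gins3, Mcm5 and Mcm2 were higher, at 0.47 ± 0.15, 0.36 ± 0.13 and 0.29 ± 0.07. Among mitosis genes, Cdc20, the activator of the anaphase-promoting complex, had 327, 306 and 365 CPM in cKO and 204, 218 and 201 CPM in parental libraries (0.68 ± 0.07, adjusted p = 4.18e-07). Its partner Ube2c was higher at 0.61 ± 0.07, and Cdk1, Bub1b and Tpx2 at 0.39, 0.31 and 0.28. Bub1, Top2a and Cenpe were lower at -0.43, -0.36 and -0.33. Cdc6 and Top2a lie on chromosome 11, where the median over genes of at least 5 CPM was -0.38 at day 0. All 18 called genes had cKO libraries apart from the parental libraries. Over all members 19 had cKO libraries wholly above (25.7% of all genes did) and 12 wholly below (26.7% of all genes did).

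Of the day 0 calls, 6 higher and 5 lower held in all 6 fits that left out a library; Mcm5, Gins3, Bub1b and Cdk2 (higher) and Bub1, Top2a and Foxm1 (lower) did not. The libraries cKO replicates 1 and 2 differed by 1.23 chi-square per degree of freedom, near sampling noise, where the other day 0 pairs of the same group had 3.37 to 12. The summed level of 12 fibroblast and feeder markers was 442 to 453 CPM in cKO and 1360.0 to 1447 CPM in parental libraries at day 0. Mitochondrial mRNA took 1.24 to 1.38% of counts in cKO and 2.01 to 2.12% in parental libraries. The part of both in these values was not tested.

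Among other pathway genes at day 0, 2 of 47 replication genes were higher and 4 lower, and 10 of 50 mitosis genes were higher and 8 lower. Of all genes tested, 15.1% were higher and 16.5% lower, so these lists did not stand out in number of calls. Ccnf (cyclin F) averaged 316 ± 13.7 CPM in cKO and 198 ± 3.86 CPM in parental libraries (0.67 ± 0.06, adjusted p = 5.32e-08), and Bub3, a checkpoint protein, was higher at 0.46 ± 0.07. Hmmr, a spindle-associated protein on chromosome 11, was lower at -0.67 ± 0.08. Pola1, the catalytic subunit of polymerase alpha, was higher at 0.48 ± 0.13, and Cdc7, the kinase that fires origins, was lower at -0.40 ± 0.10. Of the G1 list, Cdk4 averaged 686 ± 59.7 CPM in cKO and 434 ± 10.51 CPM in parental libraries (0.66 ± 0.10), Ccnd3 was higher at 0.47 ± 0.06, and Ccnd2 was lower at -1.01 ± 0.15.

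At day 3 the genotypes differed in few members: 5 were higher in cKO (6.32% of all genes were) and 4 lower (9.39% of all genes were). Plk1, the polo kinase that drives mitotic entry, had 145.5, 163 and 154 CPM in cKO and 115, 116 and 116 CPM in parental libraries (0.41 ± 0.07, adjusted p = 0.000553), with every cKO library above every parental library. Over all members 14 had cKO libraries wholly above (19.3% of all genes did) and 13 wholly below (20.8% of all genes did). Cdc20, Ube2c, Ccne1 and Cdk2 were higher at 0.35, 0.35, 0.30 and 0.30. Birc5 (survivin), on chromosome 11, had 142, 133.5 and 143 CPM in cKO and 176.5, 180.0 and 179.7 CPM in parental libraries (-0.36 ± 0.11, adjusted p = 0.0329), without overlap. Top2a (also on chromosome 11), Gins4 and Ccnb2 were lower at -0.34, -0.28 and -0.27. The chromosome 11 median over genes of at least 5 CPM was -0.39 at day 3, so Birc5 and Top2a were not below it. Medians were -0.07 for replication genes, 0.08 for mitosis genes and -0.06 for regulators.

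The higher calls of Plk1, Cdc20 and Ube2c held whichever of the 6 day 3 libraries was left out. The lower calls of Birc5, Top2a and Gins4 were lost in every such fit and that of Ccnb2 in 3 of 6. Those fits called 0 to 1 members lower, where 6.51 to 7.59% of all genes were. With total-count scaling 3 members were higher and 4 lower, where 4.83% and 10.2% of all genes were. Outside chromosome 11, 2 members were lower, where 9.39% of genes over all chromosomes were. Among other genes, 1 of 47 replication genes was higher (Rrm2, ribonucleotide reductase, 0.35 ± 0.08) and 2 were lower (Rpa1 and the primase subunit Prim2, at -0.49 and -0.31). Of all genes tested, 6.32% were higher and 9.39% lower. Ccnd1 of the G1 list was higher at 0.46 ± 0.05 and Ccnd2 lower at -1.50 ± 0.14.

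From day 0 to day 3, 5 members rose and 22 fell in cKO cells, where 41.0% of all genes rose and 35.0% fell. In parental cells 6 rose and 25 fell, where 41.1% and 34.4% of all genes did. The median of all genes was 0.13 in both, and that of replication genes was -0.59 in cKO and -0.45 in parental cells. Mybl2 had the largest change of the 40 in both, at -3.37 ± 0.08 in cKO and -2.91 ± 0.08 in parental cells. The log2 change of E2f1 was -1.63 ± 0.11 in cKO and -1.95 ± 0.11 in parental cells, that of Cdt1 -1.34 and -1.12, and that of Cdc20 -1.30 and -0.96. Against this direction Ccne2 rose by 1.75 ± 0.13 in cKO and 1.002 ± 0.13 in parental cells, and Mki67 by 1.35 ± 0.13 and 1.15 ± 0.13. The kinetochore genes Cenpe and Cenpf rose as well, at 0.84 and 0.80 in cKO and 0.61 and 1.15 in parental cells.

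From day 3 to day 6, 1 member rose and 37 fell in cKO cells, where 31.3% of all genes rose and 34.8% fell. The falls included all 15 replication genes and 18 of 19 mitosis genes, with medians of -0.95 and -0.66, and Foxm1 rose by 0.53 ± 0.06. Without replicate 2 the counts were 2 and 35, where 31.8% and 35.4% of all genes rose and fell, and E2f1 joined Foxm1. In parental cells 5 members rose and 25 fell, where 32.6% of all genes rose and 32.7% fell. There 12 of 15 replication genes fell (median -0.57) and 10 of 19 mitosis genes (median -0.31), while Foxm1, Aurkb, E2f1, Mki67 and Cdk2 rose by 0.93, 0.84, 0.75, 0.47 and 0.23. With total-count scaling, which moved the median of all parental genes to 0.17, 9 members rose and 15 fell in parental cells, where 38.4% and 26.7% of all genes did.

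**Figure D5:**
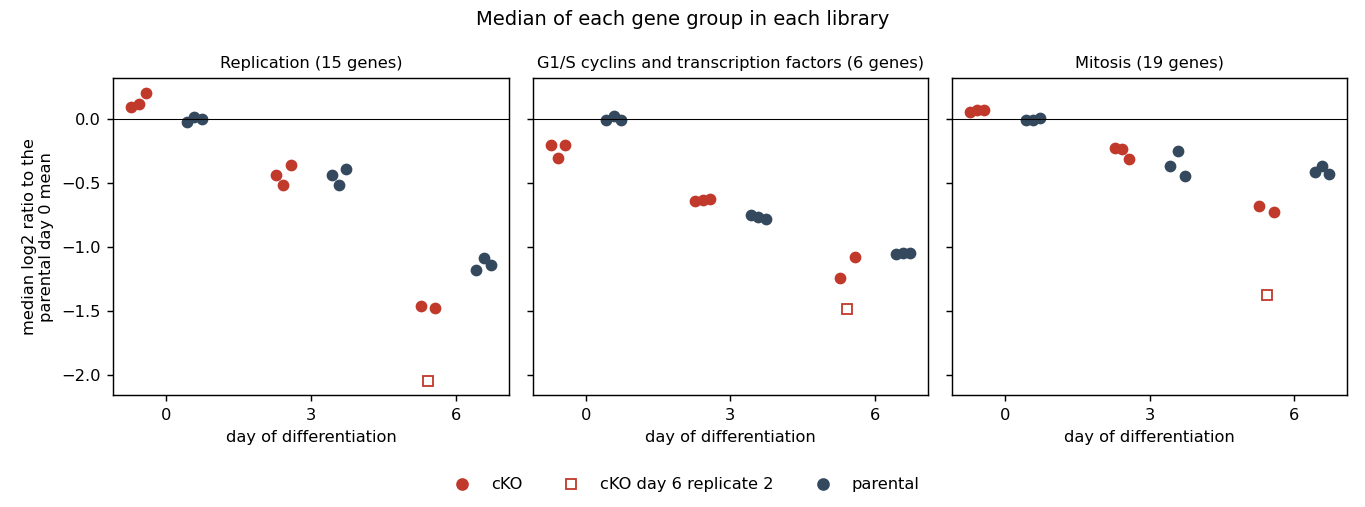
Median over each gene group of the log2 ratio to the parental day 0 mean (y axis) in each library, by day (x axis), with cKO in red left of parental in dark grey and cKO day 6 replicate 2 as an open square. Replication and mitosis medians of all 3 cKO libraries lie below those of the parental libraries at day 6, and replicate 2 is lowest, at -2.04 for replication and -1.37 for mitosis.

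The difference between genotypes of these time changes was tested directly. It uses the same day 3 libraries on both sides, so its values and those of each day are not independent of each other. For day 0 to day 3, 3 members changed upward relative to parental cells (9.47% of all genes did) and 4 downward (9.12% of all genes did). Ccne2 and Ccne1 differed by 0.75 ± 0.18 and 0.60 ± 0.11 (adjusted p = 0.00705 and 0.000687) and Plk1 by 0.31 ± 0.10 (adjusted p = 0.044). Gins3, Mybl2, Gins4 and Cdc20 differed by -0.70 ± 0.21, -0.46 ± 0.10, -0.38 ± 0.12 and -0.34 ± 0.09.

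For day 3 to day 6, 0 members changed upward and 19 downward relative to parental cells, where 12.4% and 13.6% of all genes did. DESeq2 called 0 upward and 19 downward, where 16.2% and 14.1% of all genes were. In the main edgeR fit, 0 were upward at an unadjusted p under 0.05. The 19 were 3 replication genes (Cdt1 -0.93, Mcm4 -0.58 and Mcm2 -0.55), 5 regulators (E2f1 -0.53, Cdk2 -0.51, Foxm1 -0.41, Mybl2 -0.33 and Ccne1 -0.32) and 11 mitosis genes. Among the 19, Plk1, Cdc20, Ube2c, Ccne1 and Cdk2 were higher in cKO at day 3. Of these only Ube2c and Cdk2 were lower in cKO at day 6. Of the mitosis genes Aurkb differed most, at -1.09 ± 0.15 (adjusted p = 5.22e-05): it rose in parental cells (0.84) and fell in cKO cells (-0.25). The fall in cKO passed in only 2 of 6 fits that left out a library. It was lost without cKO day 6 replicate 2 and without each of the cKO day 3 libraries. Top2a, Mki67, Ccnb2, Ube2c and Cenpa differed by -0.78, -0.74, -0.73, -0.62 and -0.62. Without replicate 2, 24 members changed downward and 2 upward (Bub1 and Cenpe), where 16.5% and 14.9% of all genes did, with 7 replication and 12 mitosis genes among the 24. Cdt1 was then -0.70 ± 0.10 and Aurkb -0.91 ± 0.09.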

How the data were processed

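Raw read counts per gene for 18 libraries, deposited by the authors in a single table, were used as given. Per the submitters' processing notes, Novoalign, DESeq2 1.10.0 and the mm10 (GRCm38) build were used. For the counting tool, annotation and strand setting, nothing is stated in the sources used here. Per the labels' protocols, total RNA was extracted with Trizol and libraries were made with a standard Illumina kit.

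Genes with low counts were removed with filterByExpr, libraries were scaled with TMM factors, and 6 group means were fitted with edgeR 4.0.16 (robust quasi-likelihood F test, R 4.3.3). P-values were adjusted over all 20267 genes tested by the Benjamini-Hochberg method, and called means an adjusted p under 0.05. SE is the log2 fold change divided by the root of F, and the biological coefficient of variation was 13.5%. The fit was run on simulated counts that held no outlying library. That run therefore cannot speak to the day 6 calls with cKO replicate 2 in the group. Coordinates and merged exon lengths were taken from GENCODE M21 (25234 of 25279 identifiers matched). The day 6 comparisons were also fitted without cKO replicate 2.

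The members, gene lists and tests were chosen with earlier results of these data known. Members with a value in every library were the 3 replication and 3 mitosis genes with the smallest adjusted p at day 6, the largest changes at the other days, Pcna, Mki67 and E2f1; others so shown were chosen after their values were seen. Pathway genes were named by smallest adjusted p. Total counts give counting precision only.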

Additional observations from a re-analysis of the deposited data

Results flagged for a closer look

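The following members changed differently over time in the genotypes, by an edgeR quasi-likelihood test of the difference itself. Each value is the log2 change in cKO cells minus that in parental cells, and the share of all genes with such a difference stands beside the counts in the report. Groups of 3 libraries were not tested gene by gene for single outlying values. Over all genes, cKO day 6 replicate 2 stood apart, with a chi-square per degree of freedom of 106 and 96.9 against the other cKO day 6 libraries.

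Between day 0 and day 3, Ccne2 (0.75), Ccne1 (0.60) and Plk1 (0.31) changed upward relative to parental cells, and Gins3 (-0.70), Mybl2 (-0.46), Gins4 (-0.38) and Cdc20 (-0.34) downward. Over 12 fits that each left out a library, Ccne1, Ccne2 and Mybl2 held in all, Cdc20 in 10, Gins3 and Gins4 in 6 and Plk1 in 2. Ccne1 rose by 0.28 in cKO cells and fell by 0.32 in parental cells.

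Between day 3 and day 6 all the differences were downward. Replication genes were Cdt1 (-0.93), Mcm4 (-0.58) and Mcm2 (-0.55). Mitosis genes were Aurkb (-1.09), Top2a (-0.78), Mki67 (-0.74), Ccnb2 (-0.73), Ube2c (-0.62), Cenpa (-0.62), Cenpf (-0.58), Ccnb1 (-0.50), Bub1b (-0.48), Plk1 (-0.47) and Cdc20 (-0.41). Regulators were E2f1 (-0.53), Cdk2 (-0.51), Foxm1 (-0.41), Mybl2 (-0.33) and Ccne1 (-0.32). Plk1, Cdc20 and Ccne1 were higher in cKO at day 3 and did not differ by the test at day 6. Ube2c and Cdk2 were higher in cKO at day 3 and lower at day 6. Of the 12 fits, Bub1b held in 10, Mybl2 in 7 and Cenpf and Ccne1 in 4, and the other 15 held in all. Epithelial markers and p53 targets moved in the same contrast, with 10 of 12 and 13 of 18 upward, and their part in these differences was not tested.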

How the results depend on the processing

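Counts of members called were recomputed under RLE factors, total-count scaling, other low-count filters, DESeq2, the libraries of a contrast alone, genes outside chromosome 11, and without each library. Members outside chromosome 11 without cKO day 6 replicate 2, and cKO day 0 replicates 1 and 2 counted as 1, were added after seeing the data. Of the counts without a library, 116 stayed within 1.5 times of the reported ones and 16 moved; of the counts under the other settings, 106 stayed and 16 moved. With the libraries of the contrast alone, day 0 had 17 higher (29.0% of the genes tested in that fit were), day 3 had 10 higher and 11 lower (16.4% and 17.3%), day 6 had 12 lower (15.9%), parental day 3 against day 0 had 11 higher (45.5%), and the day 0 to day 3 difference had 6 upward and 15 downward (15.6% and 19.5%). With total-count scaling, day 3 had 3 higher (4.83%), and parental day 6 against day 3 had 9 higher and 15 lower (38.4% and 26.7%). Day 6 against day 3 in cKO had 2 higher with RLE, total-count scaling, no filter and DESeq2 (33.4%, 35.0%, 29.7% and 27.9% of all genes were). Outside chromosome 11, day 3 had 2 lower, and day 6 without replicate 2 had 2 higher (9.39% and 20.0% over all chromosomes). The cause was not tested.

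Without single libraries, day 0 had from 6 to 8 members higher and 5 to 8 lower. Of all genes tested in those fits, 11.3 to 12.9% were higher and 12.7 to 13.4% lower. The ranges were 4 to 5 higher and 0 to 1 lower for day 3. Of all genes, 4.03 to 4.74% were higher and 6.51 to 7.59% lower at day 3. For day 6 the ranges were 0 to 2 members higher and 20 to 30 lower. Of all genes, 16.7 to 20.0% were higher at day 6. The share lower at day 6 ran from 4366 of 20835 genes (without parental replicate 2) to 25.7% (without cKO replicate 1). Day 6 against day 3 in cKO ranged from 1 to 2 higher and 34 to 38 lower, and in parental cells from 4 to 5 and 22 to 23. In cKO, 28.6 to 31.8% of all genes rose and 31.9 to 35.4% fell. For parental cells these shares were 29.1 to 30.0% and 29.5 to 30.4%. The day 0 to day 3 difference ranged from 2 to 3 upward and 1 to 4 downward, and the day 3 to day 6 difference from 0 to 2 and 15 to 28. Replicate numbers were assigned here in the order of the library titles within each group. No paired analysis was possible because the labels carry no replicate numbers that tie a cKO library to a parental one.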
